A study of Mus musculus with 2 samples.

Results

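The mitochondrial carrier family was described in AML12 cells without treatment (control) and after induction of senescence by hydrogen peroxide. Its genes were taken as the protein-coding genes whose symbol starts with Slc25a, together with Ucp2, that had 10 or more reads over both libraries. There were 42 such genes among the 48 family genes of any read number and among 35275 genes in the table. AML12 is a non-transformed mouse hepatocyte line that was derived from mice carrying a human TGF-alpha transgene under a metallothionein promoter. The labels give both groups as liver of a male CD-1 mouse of 3 months. The control group (labelled Young) was untreated, and the senescent group (labelled Old) received repeated exposures to hydrogen peroxide in serum-free medium, each followed by recovery in medium with serum, insulin-transferrin-selenium and dexamethasone. RNA of 3 samples per group was pooled into 1 library, so that 2 libraries were compared. Without replicate libraries no p-value could be given, and each ratio below compares these libraries, not the conditions at large. Because the RNA was bulk RNA, fewer cells of a type and less RNA per cell cannot be told apart.

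Mitochondrial carriers are small proteins that span the inner membrane and exchange metabolites between the cytosol and the matrix. They carry nucleotides, phosphate, carboxylates, amino acids, cofactors and protons, and most are built from a repeated module that carries a short signature of proline, an acidic residue and a basic residue. In hepatocytes they link the urea cycle, gluconeogenesis, fatty acid oxidation and lipid synthesis to respiration. A few family members have other addresses, with Slc25a17 in the peroxisome and Slc25a46 on the outer mitochondrial membrane.

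The signature was sought in the annotated coding sequence of each gene (GENCODE M21 transcripts, GRCm38) as a proline codon, any codon, an aspartate or glutamate codon, any pair of codons, and a lysine or arginine codon. Of the 42 genes, 25 (59.5%) held 3 or more copies, 9 held 2, 5 held 1 and 3 held 0. The 3 without a copy were Slc25a46, Slc25a51 and Slc25a53. Among 21507 coding genes outside these 42, 481 (2.24%) held 3 or more copies. Carriers below the read limit or with other symbols were not taken out of that set. Coding length ran from 274 to 677 codons with a median of 317. The first copy of the members on which the results below turn is shown 5′ to 3′ on the coding strand, with the signature codons for proline, the acidic residue and the basic residue in capitals:
Slc25a5: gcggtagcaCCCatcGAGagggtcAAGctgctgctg
Slc25a4: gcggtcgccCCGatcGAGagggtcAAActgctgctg
Slc25a24: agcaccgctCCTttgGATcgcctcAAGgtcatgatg
Slc25a23: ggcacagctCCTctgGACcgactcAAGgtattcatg
Slc25a37: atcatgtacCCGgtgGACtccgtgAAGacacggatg
Slc25a28: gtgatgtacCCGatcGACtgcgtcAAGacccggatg
Ucp2: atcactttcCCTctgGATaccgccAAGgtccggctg
Slc25a45: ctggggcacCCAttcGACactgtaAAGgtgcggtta
Slc25a48: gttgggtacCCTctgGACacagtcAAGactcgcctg
The adenine nucleotide carriers Slc25a4 and Slc25a5 have a glutamate codon at the acidic position of this first copy, and the other 7 have an aspartate codon.

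Reads were scaled with TMM factors, and each gene was given its log2 ratio (senescent over control) with a 95% interval from its read counts. These intervals cover counting error only and hold no variation between samples. Amplified reads that carry no molecular identifier need not come from separate molecules, so the intervals can be too narrow even for counting error. Across the 42 carrier genes the median log2 ratio was -0.15, beside -0.02 over the 14383 genes with at least 10 reads. The quartiles were -0.47 and 0.24 for the carriers and -0.48 and 0.35 for all genes. The log2 ratio was above 0 for 18 carriers and below 0 for 24, and 38 of 42 (90.5%) lay within 1 of 0, beside 83.1% of all genes. Scaling by total counts moved the median of all genes from -0.02 to -0.12 and that of the carriers to -0.25, and it turned the sign of Slc25a4, Slc25a39 and Slc25a47. Upper-quartile scaling turned the sign of Slc25a4 and Slc25a47.

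No carrier passed the study's threshold of 1.5 on the log2 scale upward, beside 2.71% of all genes tested. Slc25a34 alone, with 25 reads in all, passed it downward (2.38% of the carriers, beside 5.60% of all genes). At a threshold of 1, which was chosen after the data were seen, Slc25a24 was higher (2.38%, beside 5.09% of all genes). Slc25a34, Ucp2 and Slc25a45 were lower at that threshold (7.14%, beside 9.98%). The counting interval lay wholly above 0 for 15 carriers (35.7%, beside 34.0% of all genes) and wholly below 0 for 19 (45.2%, beside 34.6%), and it held 0 for 8. With a biological coefficient of variation of 0.1 assumed between samples, the widened interval lay above 0 for 6 carriers (14.3%, beside 17.5% of all genes) and below 0 for 11 (26.2%, beside 21.4%). At a coefficient of 0.4 the interval of every one of the 42 carriers held 0, while it lay above 0 for 1.71% and below 0 for 3.85% of all genes.

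**Figure D1:**
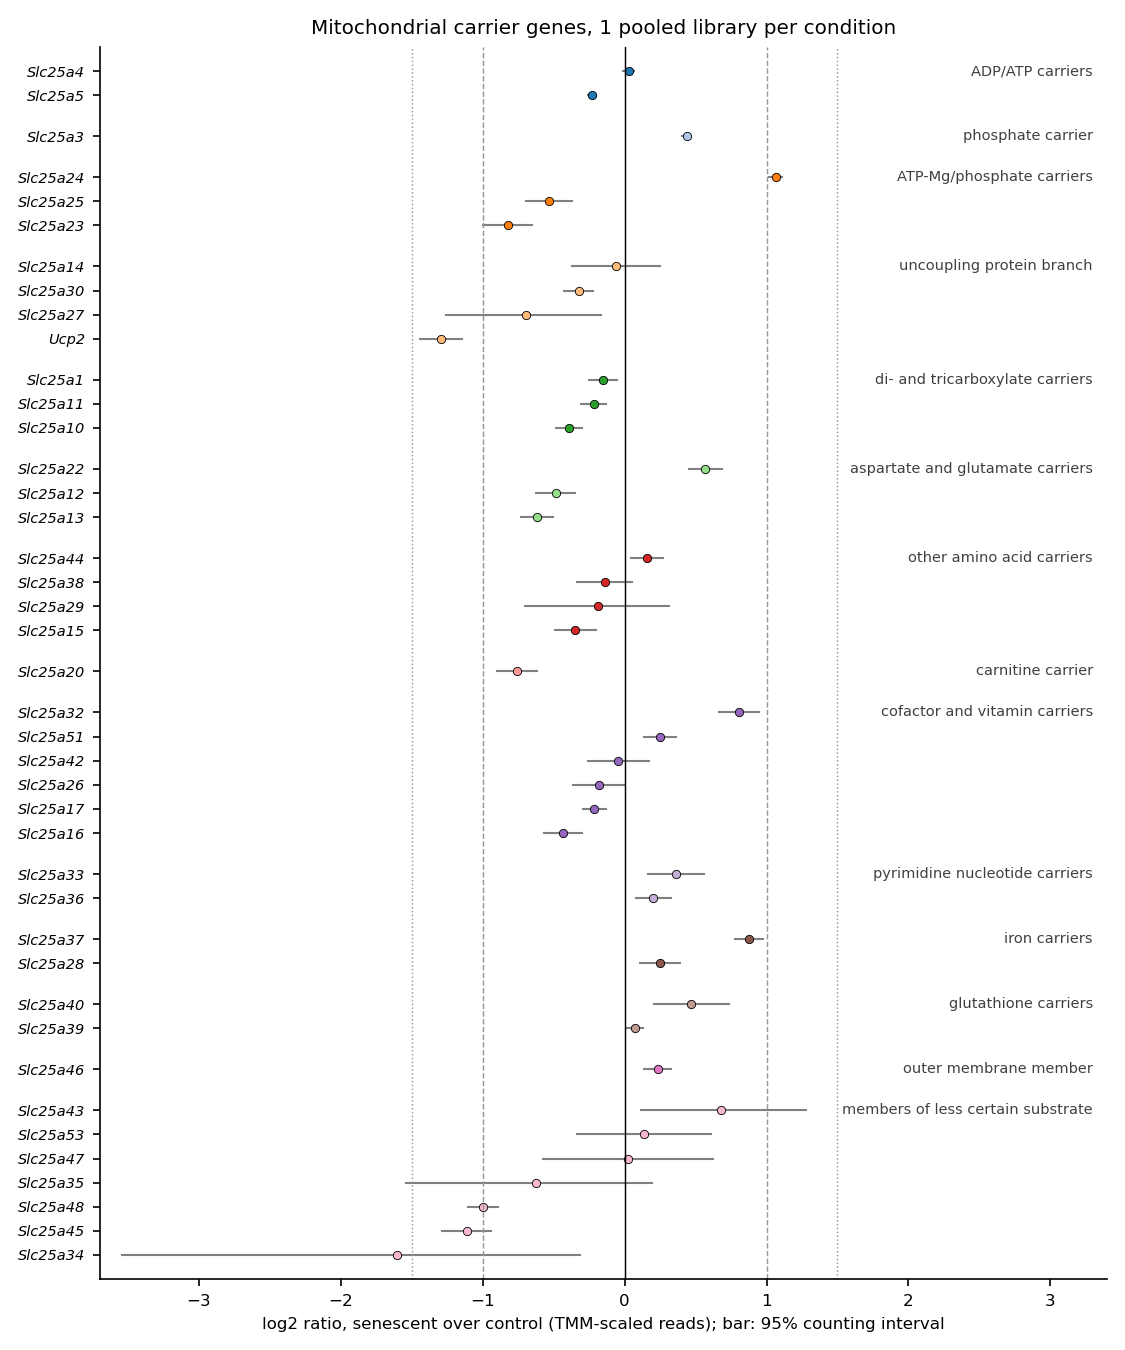
Log2 ratio of senescent over control for 41 of the 42 carrier genes, grouped by transported substrate, with points for the TMM-scaled ratio and bars for the 95% counting interval. Dashed lines mark 1 and -1, dotted lines mark 1.5 and -1.5, and Slc25a24 at the right and Ucp2, Slc25a45 and Slc25a34 at the left lie past the dashed lines.

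Levels of different genes were compared as RPKM, which here are TMM-scaled reads divided by the annotated exon length in kilobases and by library size. The carriers together had a summed level of 1240 RPKM (control) and 1229 RPKM (senescent), with -0.01 as the log2 ratio of these sums. Without TMM scaling, they took 0.356% of the control reads (95% exact interval 0.354 to 0.359) and 0.347% of the senescent reads (0.345 to 0.349). These intervals cover counting error only. With the TMM factors (1.04 control, 0.964 senescent) applied to the library sizes the senescent share is the higher one. The direction of this difference thus depends on the scaling. Slc25a5, Slc25a4, Slc25a3 and Slc25a24 had the 4 highest mean levels over both libraries. They made up 67.1% of the summed control level and 69.9% of the summed senescent level. Slc25a24 is among them through its senescent level. In control it had 59.2 RPKM, below Slc25a39 at 68.1 RPKM, so this choice favours a rise of the share. At the low end, Slc25a34 had the lowest mean level of the 42, at 0.167 RPKM, and Slc25a5 had the highest mean level, at 466 RPKM. In the control library 35 carriers were above 1 RPKM, and in the senescent library 36 were. The exon length used bears on the order of the levels. With the length of the principal coding transcript Slc25a3 moved from the third to the second place and Slc25a4 from place 2 to 3. Slc25a39 moved from place 5 to 4 and Slc25a24 from place 4 to 5. Slc25a28 moved from place 18 to 10 and Slc25a20 from place 22 to 12.

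**Figure D2:**
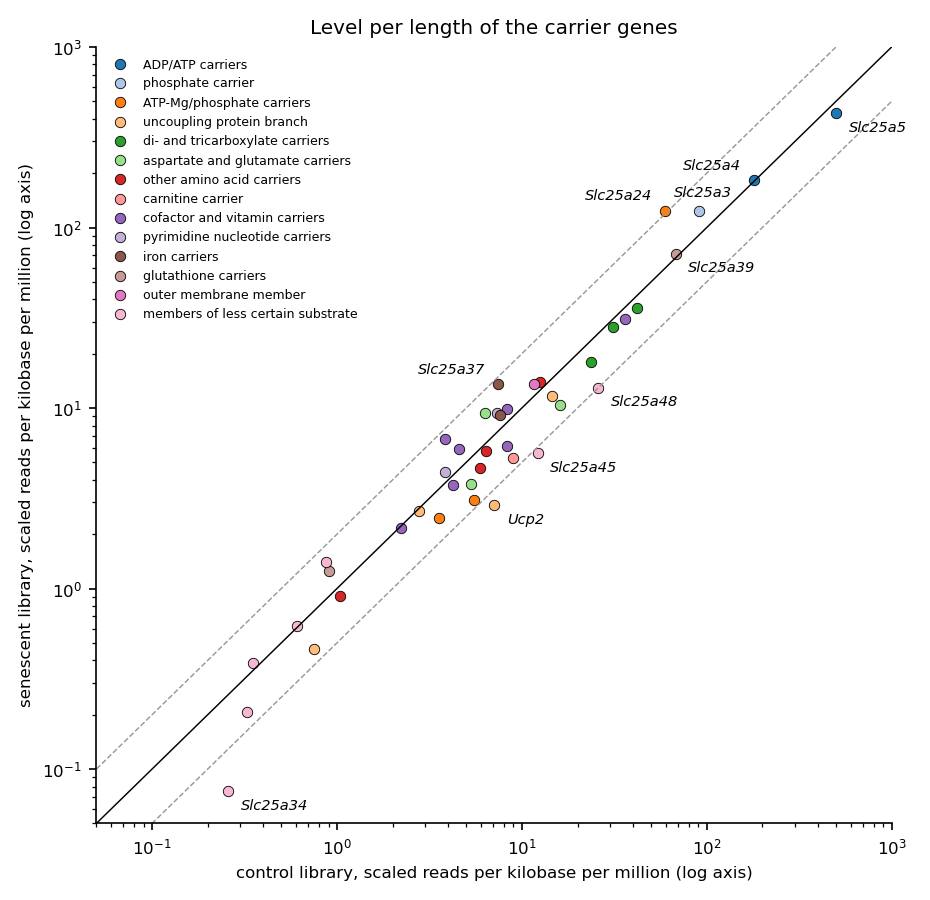
Level per length (RPKM, TMM-scaled) of each carrier gene in the control library (x axis) and the senescent library (y axis), both on log axes and coloured by transported substrate. The solid line marks equal levels and the dashed lines a fold of 2 in either direction, and Slc25a24 lies above the upper dashed line while Ucp2, Slc25a45 and Slc25a34 lie under the lower one.

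The ADP/ATP carriers export ATP from the matrix in exchange for ADP. Slc25a5 (Ant2), the form of growing cells, had 24053 control and 17517 senescent reads, or 503 and 429 RPKM. Its log2 ratio was -0.23 (95% interval -0.26 to -0.20). Slc25a4 (Ant1), known best from heart and muscle, had 12255 and 10668 reads, or 179 and 183 RPKM, with a log2 ratio of 0.03 (-0.01 to 0.07), which became -0.08 with total counts. Slc25a5 was thus lower in the senescent library while the interval of Slc25a4 held 0. Of the 50-base windows of Slc25a5 exons, 33.8% also occur in 9 pseudogenes, of which the 8 in the table held 15 control and 9 senescent reads. The testis form Slc25a31 had 0 reads in both libraries.

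The phosphate carrier Slc25a3 brings phosphate into the matrix for ATP synthesis. It had 14697 control and 16968 senescent reads, or 91.1 and 123 RPKM, with a log2 ratio of 0.44 (0.40 to 0.47). Its share of the summed level of the family was 7.34% for control and 10.0% for senescent cells, and 16.8% and 22.4% with the length of the principal transcript.

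The ATP-Mg/phosphate carriers are calcium-regulated and set the adenine nucleotide content of the matrix, and their members differed in direction. Slc25a24 had 5908 control and 10538 senescent reads, or 59.2 and 124 RPKM. Its log2 ratio was 1.06 (1.02 to 1.11), a fold of 2.09 and the highest of the 42 carriers, and 0.96 with total counts. Slc25a24 lies on chromosome 3 (GRCm38, 109123149 to 109168457, plus strand). Its relatives were lower in the senescent library. Slc25a25 had 817 and 482 reads, or 3.57 and 2.47 RPKM, with a log2 ratio of -0.53 (-0.70 to -0.37). Slc25a23 had 846 and 408 reads, or 5.50 and 3.11 RPKM, with a log2 ratio of -0.82 (-0.996 to -0.65). With Slc25a41 at 0 reads in both libraries, Slc25a24 held most of the level of the group, whose share of the summed level of the family was 5.50% for control and 10.5% for senescent cells. Slc25a24 alone held 4.77% and 10.1%, and 3.17% and 6.53% with the length of the principal transcript.

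Ucp2 and its nearest relatives form the uncoupling protein branch, and all 4 detected members had a log2 ratio below 0. Ucp2 moves metabolites and protons across the inner membrane and is strongly regulated by nutrient state. It had 1445 control and 502 senescent reads, or 7.11 and 2.90 RPKM. Its log2 ratio was -1.29 (-1.45 to -1.15), a fold of 0.408. Ucp2 is on the plus strand of chromosome 7, and 4.36% of its exon bases overlap Dnajb13 on the opposite strand, which had 3 reads in each library. Slc25a27 (Ucp4), a form known from brain, had 86 and 45 reads, or 0.752 and 0.461 RPKM, with a log2 ratio of -0.69 (-1.26 to -0.17). Slc25a30 had 1943 and 1323 reads, or 14.6 and 11.7 RPKM, with a log2 ratio of -0.32 (-0.43 to -0.22). The interval of Slc25a14 held 0, with 192 and 157 reads, or 2.79 and 2.68 RPKM, and a log2 ratio of -0.06 (-0.37 to 0.25). Of the relatives with other names, Ucp1 had 0 reads in both libraries and Ucp3 had 0 control reads and 1 senescent read.

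The 3 detected di- and tricarboxylate carriers were lower in the senescent library by small amounts. The citrate carrier Slc25a1, which exports citrate for lipid synthesis, had 1961 control and 1504 senescent reads, or 31.2 and 28.0 RPKM, with a log2 ratio of -0.15 (-0.25 to -0.06). The dicarboxylate carrier Slc25a10 had 2371 and 1540 reads, or 23.6 and 18.0 RPKM, with a log2 ratio of -0.39 (-0.49 to -0.30). The malate/oxoglutarate carrier Slc25a11 had 2582 and 1893 reads, or 41.9 and 36.0 RPKM, with a log2 ratio of -0.22 (-0.30 to -0.13). Rnf167 overlaps 8.92% of the exon bases of Slc25a11 on the opposite strand, and whether the counting used strand is not given in the sources used here. The oxodicarboxylate carrier Slc25a21 was well below the limit of 10 reads, with 2 control reads and 0 senescent reads, and no fold is given for it.

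Carriers of aspartate and glutamate split by substrate. The aspartate/glutamate exchangers of the malate-aspartate shuttle were both lower in the senescent library. Slc25a12 (aralar) had 1129 control and 687 senescent reads, or 5.29 and 3.77 RPKM, with a log2 ratio of -0.49 (-0.63 to -0.35). Slc25a13 (citrin), the liver form that also serves the urea cycle, had 1772 and 985 reads, or 16.0 and 10.5 RPKM, with a log2 ratio of -0.62 (-0.73 to -0.50). The glutamate carrier Slc25a22 was higher, with 1105 and 1399 reads and a log2 ratio of 0.57 (0.46 to 0.69). The other glutamate carrier, Slc25a18, had 0 control reads and 1 senescent read.

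Other amino acid carriers had log2 ratios near 0, from -0.35 to 0.16 among 4 genes. The ornithine carrier Slc25a15, a member of the urea cycle route, was lower (-0.35, -0.49 to -0.20), with 968 control and 649 senescent reads. Slc25a44, which takes up branched-chain amino acids, was higher by a small amount (0.16, 0.04 to 0.27). The intervals of the glycine carrier Slc25a38 and of the basic amino acid carrier Slc25a29 held 0. The carnitine/acylcarnitine carrier Slc25a20, through which long-chain fatty acids enter the matrix, had 1266 control and 639 senescent reads, or 8.99 and 5.32 RPKM, with a log2 ratio of -0.76 (-0.90 to -0.62).

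Cofactor and vitamin carriers were divided in direction. Slc25a32, which carries folate and FAD, had 679 control and 1012 senescent reads and a log2 ratio of 0.80 (0.66 to 0.95). The NAD carrier Slc25a51 was higher by less (0.25, 0.14 to 0.36). Slc25a16, linked to coenzyme A, had 1162 and 734 reads, or 8.33 and 6.17 RPKM, with a log2 ratio of -0.43 (-0.57 to -0.30). The coenzyme A carrier Slc25a42 had 388 and 321 reads, or 2.23 and 2.16 RPKM, with a log2 ratio of -0.04 (-0.26 to 0.17), so its interval held 0. The peroxisomal Slc25a17 had 3004 and 2209 reads, or 36.3 and 31.3 RPKM, with a log2 ratio of -0.21 (-0.29 to -0.13). The S-adenosylmethionine carrier Slc25a26 had a log2 ratio of -0.18 (-0.36 to -0.00296).

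Pyrimidine nucleotide, iron and glutathione carriers all had log2 ratios above 0, except that Slc25a39 turned to -0.03 with total counts. Slc25a37 (mitoferrin 1), which brings iron into the matrix for heme and iron-sulfur clusters, had 1295 control and 2028 senescent reads, or 7.40 and 13.6 RPKM. Its log2 ratio was 0.88 (0.78 to 0.98). Slc25a28 (mitoferrin 2), the form used outside the erythroid lineage, had 835 and 846 reads, or 7.66 and 9.10 RPKM, with a log2 ratio of 0.25 (0.11 to 0.39). The mitoferrins thus stood at like levels per length in the control library, and Slc25a37 was above Slc25a28 in the senescent one. With the length of the principal transcript Slc25a28 had 18.7 and 22.2 RPKM, so the order of the mitoferrins depends on the length used.

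The pyrimidine nucleotide carrier Slc25a33 had 401 control and 440 senescent reads, or 7.31 and 9.40 RPKM, and a log2 ratio of 0.36 (0.16 to 0.56). An antisense gene, Gm13068, overlaps 14.9% of its exon bases and had 8 and 17 reads. Slc25a36 had 1078 and 1057 reads, or 3.86 and 4.44 RPKM, with a log2 ratio of 0.20 (0.08 to 0.32). Slc25a39, through which glutathione enters mitochondria, had 5455 and 4898 reads, or 68.1 and 71.7 RPKM, with a log2 ratio of 0.07 (0.02 to 0.13). Its relative Slc25a40 had 221 and 261 reads, or 0.906 and 1.25 RPKM, with a log2 ratio of 0.47 (0.21 to 0.73). The outer membrane member Slc25a46 had a log2 ratio of 0.23 (0.14 to 0.33).

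The 7 detected members of less certain substrate held 3 of the 5 lowest log2 ratios of the family. Slc25a48 had 2542 control and 1086 senescent reads, or 25.9 and 13.0 RPKM. The log2 ratio of -0.997 (-1.10 to -0.89) lay just inside the threshold of 1, and Slc25a48 passed that threshold with total counts, upper quartiles and the size factors of DESeq2. Slc25a45, whose position is on chromosome 19, had 980 and 387 reads, or 12.2 and 5.65 RPKM, with a log2 ratio of -1.11 (-1.28 to -0.94). Slc25a34, the member nearest to the read limit, had 20 and 5 reads, or 0.258 and 0.0755 RPKM. Its log2 ratio was -1.60 (-3.54 to -0.31) and became -1.17 with a prior count of 5. Slc25a43 had 45 and 62 reads and a log2 ratio of 0.68 (0.11 to 1.28). The intervals of Slc25a35, Slc25a47 and Slc25a53 held 0. Slc25a35 shares 31.3% of its exon bases with Rangrf on the opposite strand, which had 138 and 128 reads beside 35 and 19 of its own. In this group Slc25a54 had 0 reads in both libraries, as did the ornithine carrier relative Slc25a2.

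By substrate, the summed level of the family was shared out differently in the libraries. The ADP/ATP carriers held 55.0% of it in control and 49.8% in senescent cells. These shares depend on the length used. Slc25a5 alone held 40.5% and 34.9% with the union of exons, and 35.7% and 30.0% with the principal transcript. The members of less certain substrate held 3.27% and 1.74%, a log2 ratio of their summed level of -0.93. Slc25a48 (25.9 and 13.0 RPKM) and Slc25a45 (12.2 and 5.65 RPKM) held most of the 40.5 and 21.3 RPKM of this group. Of its 7 genes, 3 had a log2 ratio above 0. The iron carriers held 1.21% and 1.85%, with a log2 ratio of 0.59. The uncoupling protein branch held 2.04% and 1.44%, with a log2 ratio of -0.51. The summed levels of the cofactor and vitamin carriers (-0.04) and of the other amino acid carriers (-0.03) had log2 ratios near 0.

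**Figure D3:**
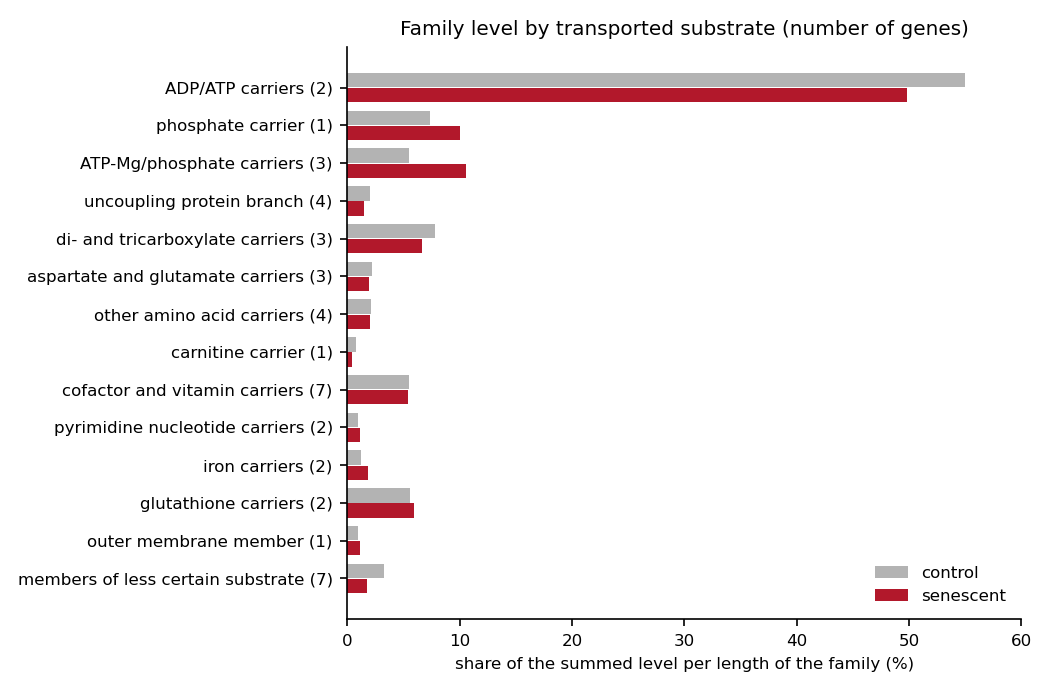
Share of the summed level per length of the family (percent, x axis) held by each substrate group in the control library (grey bars) and the senescent library (red bars), with the number of genes in brackets. Length is the union of annotated exons. The ADP/ATP carriers take the longest bars, at 55.0% and 49.8%, and the bar of the ATP-Mg/phosphate carriers goes from 5.50% (control) to 10.5% (senescent).

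Paralogue pairs were compared by the odds ratio of their 4 read counts, on which library scaling has no effect. Of 10 pairs with both members detected, 7 had an interval of the difference that left out 0. Pairs of unrelated genes were not compared, so no background share stands beside this count. For single genes, the counting interval lay wholly above 0 for 34.0% and wholly below 0 for 34.6% of all genes. Slc25a24 differed most from its relatives. The log2 ratio of Slc25a23 minus that of Slc25a24 was -1.89 (-2.07 to -1.71), and Slc25a23 held 8.49% of the level per length of this pair in control and 2.45% in senescent cells. The difference of Slc25a24 minus Slc25a25 was 1.60 (1.43 to 1.77). Slc25a28 minus Slc25a37 was -0.63 (-0.80 to -0.45). These 3 pairs kept an interval without 0 at an assumed coefficient of variation of 0.1, and no pair kept one at 0.4. The pairs with Slc25a23 and with Slc25a25 share Slc25a24, so they are not separate results.

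Smaller differences were found for 4 pairs. Slc25a4 minus Slc25a5 was 0.26 (0.21 to 0.30). Slc25a39 minus Slc25a40 was -0.40 (-0.67 to -0.13), and Slc25a16 minus Slc25a42 was -0.39 (-0.65 to -0.13). Slc25a10 minus Slc25a11 was -0.17 (-0.30 to -0.05). The intervals of the remaining 3 pairs held 0, with 0.13 (-0.05 to 0.31) for Slc25a12 minus Slc25a13, 0.16 (-0.07 to 0.40) for Slc25a33 minus Slc25a36 and 0.26 (-0.07 to 0.59) for Slc25a14 minus Slc25a30. The coding sequences of the pairs were between 58.1% (Slc25a10 and Slc25a11) and 77.4% (Slc25a4 and Slc25a5) identical over the aligned bases. Slc25a23 and Slc25a24 were 64.8% identical, and Slc25a28 and Slc25a37 were 72.1% identical.

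**Figure D4:**
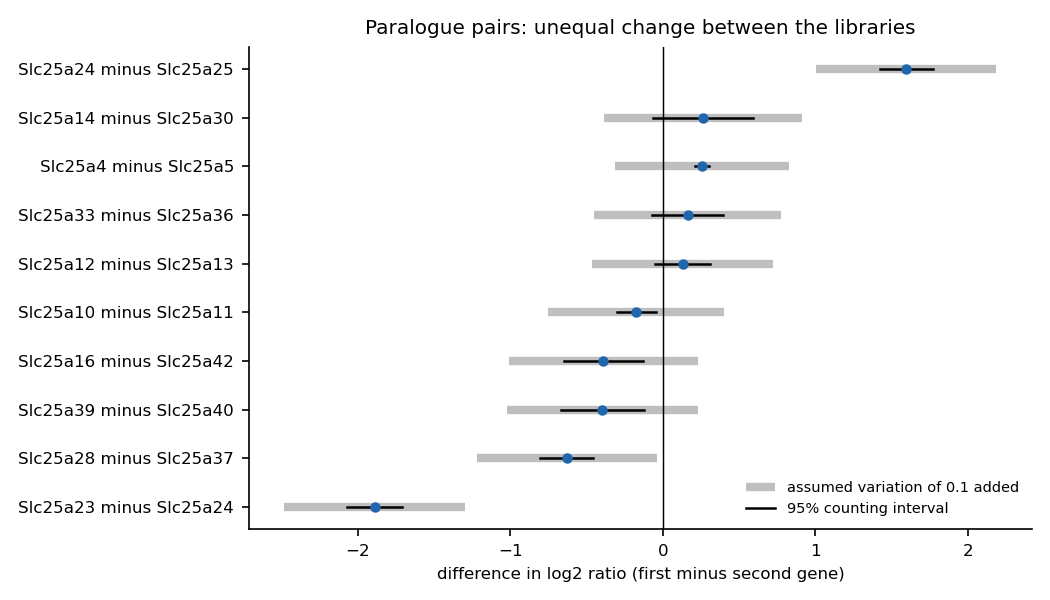
Difference in log2 ratio between the members of 10 paralogue pairs (x axis, first minus second gene), with points for the estimate, thin black bars for the 95% counting interval and thick grey bars for the interval at an assumed coefficient of variation of 0.1. The grey bar leaves out 0 for Slc25a23 minus Slc25a24, Slc25a24 minus Slc25a25 and Slc25a28 minus Slc25a37.

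The 42 genes lie on 19 chromosomes, and a few are close neighbours. Slc25a29 and Slc25a47 start from opposite strands of chromosome 12 with 162 bases between them, and their log2 ratios were -0.19 and 0.02, with intervals that held 0. Slc25a5 and Slc25a43 are 18448 bases apart on the X chromosome, with log2 ratios of -0.23 and 0.68. Slc25a24 lies 6461 bases from Slc25a54 on chromosome 3, and Slc25a23 lies 2056 bases from Slc25a41 on chromosome 17, in each case a detected gene beside one with 0 reads in both libraries.

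Promoter sequence was available for 33 of the 42 genes, with 42 windows of the 250 bases before a start site (RefSeq, GRCm38.p6). Windows of 1 gene can overlap and share a match, as those of Slc25a14 and Slc25a23 did, so matches were counted once per gene. The GC box GGGCGG was found on either strand in at least 1 window of 25 carriers (75.8%), beside 35.4% of 27025 genes. CCAAT was found for 17 carriers (51.5%, beside 37.5%), CACGTG for 6 (18.2%, beside 6.86%) and TGACNNNGC, the core of the antioxidant element, for 8 (24.2%, beside 11.5%). The core of the amino acid response element, TGATGNAA, was in a window of 0 carriers, beside 3.91% of all genes. By window, the shares were 76.2% of 42 beside 32.7% of 32851 for GGGCGG, 47.6% beside 33.8% for CCAAT, 16.7% beside 6.02% for CACGTG, 23.8% beside 10.2% for TGACNNNGC and 0% beside 3.45% for TGATGNAA. The median GC content was 57.8% for the carriers and 52.4% for all windows, and no window of matched GC content was compared. The background was every gene with a window, without a limit on reads or coding type. The carriers were coding genes with at least 10 reads, so these shares do not set them apart from other detected coding genes. The windows of Slc25a24, Ucp2 and Slc25a45, as the highest carrier and the 2 lowest with over 100 reads, are shown 5′ to 3′ on the plus strand of the genome, on which all 3 genes lie. Capitals mark matches to GGGCGG or TGACNNNGC on either strand:
Slc25a24 (chr3:109122899-109123148): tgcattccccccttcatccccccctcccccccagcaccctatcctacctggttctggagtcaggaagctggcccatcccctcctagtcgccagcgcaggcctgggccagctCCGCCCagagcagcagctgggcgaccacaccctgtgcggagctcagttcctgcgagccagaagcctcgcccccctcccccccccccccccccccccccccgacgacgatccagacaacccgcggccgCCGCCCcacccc
Ucp2 (chr7:100493108-100493357): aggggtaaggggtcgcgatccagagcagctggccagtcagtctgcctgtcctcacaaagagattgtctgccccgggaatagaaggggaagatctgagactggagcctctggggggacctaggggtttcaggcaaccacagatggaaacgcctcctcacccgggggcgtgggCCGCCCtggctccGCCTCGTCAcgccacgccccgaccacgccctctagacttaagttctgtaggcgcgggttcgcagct
Slc25a45 (chr19:5877572-5877821): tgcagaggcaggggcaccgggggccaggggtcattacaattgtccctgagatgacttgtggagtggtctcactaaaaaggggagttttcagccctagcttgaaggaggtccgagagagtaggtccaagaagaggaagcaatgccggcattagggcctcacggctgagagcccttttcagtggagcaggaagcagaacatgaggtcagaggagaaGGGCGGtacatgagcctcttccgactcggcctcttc
The Slc25a24 window held GC boxes 139 and 12 bases before the start. In the Ucp2 window a GC box stood 79 bases and a TGACNNNGC match 66 bases before the start, and in the Slc25a45 window a GC box stood 36 bases before it.

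Carriers work with other proteins, and 50 partner genes were read in the same way. Of these, 47 had enough reads, and their median log2 ratio was -0.07. None passed the threshold of 1.5 in either direction, beside 2.71% of all genes upward and 5.60% downward. Slc8b1, the mitochondrial sodium/calcium exchanger, was higher at the threshold of 1, with 457 control and 943 senescent reads and a log2 ratio of 1.27. The pyruvate carrier subunit Mpc1 (1331 and 536 reads, -1.08), Sfxn2 (513 and 191 reads, -1.19) and the peroxisomal carnitine octanoyltransferase Crot (4337 and 1570 reads, -1.24) were lower at it. These were 1 and 3 of 47 genes, beside 5.09% and 9.98% of all genes.

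The route by which carriers are imported and inserted had a median log2 ratio of 0.22 over 10 genes, between -0.40 for Timm8b and 0.70 for the receptor Tomm70a (4197 and 5813 reads). Of the outer membrane channels, Vdac2 had a log2 ratio of 0.83 (6892 and 10422 reads) and Vdac1 of 0.21 (9096 and 8992 reads). The 13 other inner membrane transporters had the lowest median of the lists, -0.72, and they ran from -1.19 for Sfxn2 to 1.27 for Slc8b1. The enzymes of the malate-aspartate and citrate shuttles had a median of 0.08 over 7 genes, with Acly, which splits citrate in the cytosol, at -0.21 (12409 and 9128 reads). Carnitine shuttle enzymes had a median of -0.48 over 5 genes, which was also the value of Cpt1a, the entry step of the shuttle (13045 and 7971 reads). This list ran from -1.24 for the peroxisomal Crot to 0.74 for Cpt1b, which had only 8 and 12 reads and an interval that held 0. Genes of mitochondrial iron use had a median of -0.18 over 7 genes, with ferrochelatase (Fech) at -0.59 (2194 and 1240 reads). The family members Mtch1 and Mtch2 of the outer membrane had log2 ratios of -0.24 and -0.03.

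**Figure D5:**
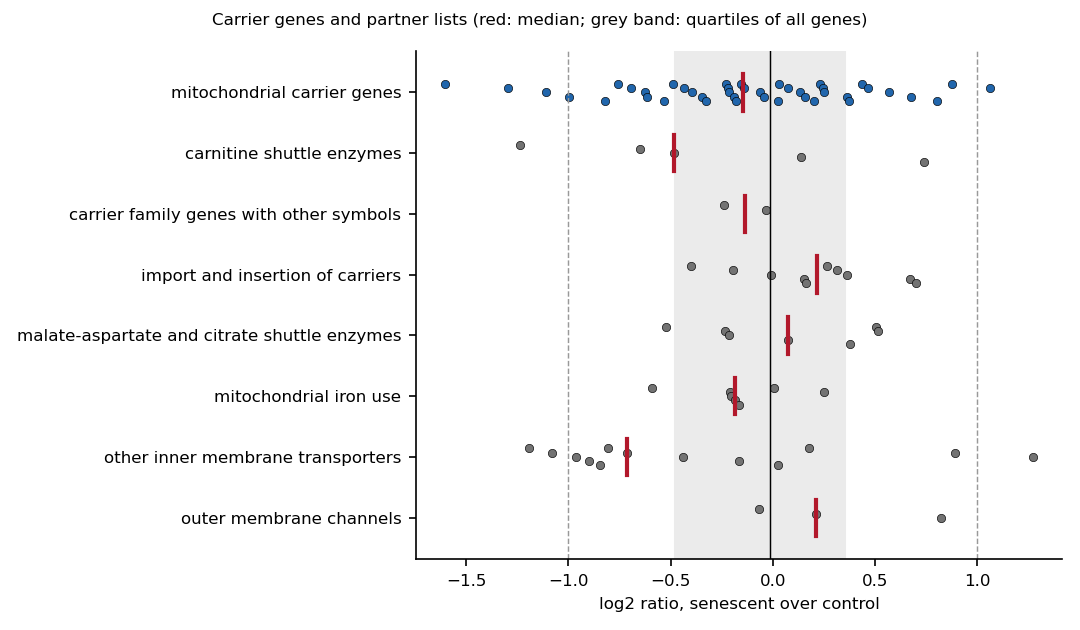
Log2 ratio of senescent over control (x axis) for each carrier gene (blue points, top line) and for the genes of each partner list (grey points), with red bars for the median of each line. The grey band spans the quartiles of all genes tested, -0.48 to 0.35, the dashed lines mark 1 and -1, and the other inner membrane transporters have their median at -0.72, left of the band.

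The control library held 28021941 and the senescent library 25738075 counted reads. Of 9 hepatocyte markers in the table all were detected, with a summed level of 8517 CPM (reads scaled to library size) in control and 10170 CPM in senescent cells. Krt8 and Krt18 carried this sum, and without them it was 3018 and 1875 CPM. Alb (32076 and 2917 reads), Apoa1 and Serpina1a, 3 of the 9, were lower by more than 1 on the log2 scale, beside 9.98% of all genes. Ttr had a log2 ratio of -0.91, Afp of 0.02, Hnf4a of 0.14, Apob of 0.41, Krt8 of 0.51 and Krt18 of 0.82. Biliary markers Krt7 (log2 ratio -1.43), Krt19 (-0.03) and Sox9 (0.54) were also detected, while Epcam had 0 control reads and 1 senescent read. Krt19 (22885 and 19177 reads) carried the sum of this list, 1023 and 994 CPM. Krt7, 1 of the 3 tested, was lower by more than 1, beside 9.98% of all genes. The macrophage list held 77 and 156 reads, with Adgre1 and Clec4f at 0 in both libraries. Ptprc (27 and 76 reads, 1.68) and Csf1r (15 and 40 reads, 1.58) were higher by more than 1 on the log2 scale. These were 2 of the 3 tested, beside 5.09% of all genes. Fibroblast or stellate markers held 27 and 5 reads and endothelial markers 5 and 12. Among 6 genes that mark senescence or proliferation, Cdkn1a (0.90), Trp53 (0.26) and Top2a (0.18) were higher in the senescent library, and Cdkn2a (-1.32), Mki67 (-0.79) and Lmnb1 (-0.30) were lower. The part of these differences in the carrier values was not tested.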

How the data were processed

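The authors deposited 1 table of un-normalized read counts per gene, listed by Ensembl identifier, with 1 column per library. Its columns were assigned by the initials of the sample titles. According to the labels, mRNA was captured on poly-T beads and primed with random hexamers. They name mm10, CASAVA, STAR, DESeq2 and edgeR among the processing notes, while versions, counting tool, annotation and strand are not given in the sources used here. Of 35275 genes, 34490 (97.8%) were matched to GENCODE M21. Counts were scaled with TMM factors (1.04 control, 0.964 senescent) of edgeR 4.0.16 in R 4.3.3. Python 3.11.15 (pandas 2.3.3, scipy 1.17.1, numpy 2.4.6) gave the ratios, with a prior count of 1 in proportion to library size and a 95% Clopper-Pearson interval of the senescent share. A gene was counted past a log2 threshold of 1.5 if it had at least 10 reads and an interval without 0. A library with 3 or fewer reads was taken as at the floor, and no fold is given where both are. RPKM used the union of annotated exons. Signature codons and pair identity were read with Biopython 1.88 and plots drawn with matplotlib 3.10.9. With 1 library per condition no test of edgeR or DESeq2 was run and no p-value computed. The computation was tested on simulated data. Alternatives were total counts, size factors of DESeq2 1.42.0, upper quartiles, at least 1 or 100 reads, prior counts of 0.125 and 5, thresholds of 1 and 2, and assumed coefficients of variation of 0.1 and 0.4. The members, lists and alternatives were chosen with earlier results of these data known. The values of 1 carrier are not reported here. Full values are given for members past 1 in either direction, the 10 highest mean levels, paralogue pairs and the members nearest to the read limit. Of a partner list, up to 4 genes past 1 and up to 2 others with the most reads could be named, and some genes beyond this rule are named for their range.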

Additional observations from a re-analysis of the deposited data

How the results depend on the processing

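Of 210 recomputed ratios of single carriers, 194 stayed within the interval reported and 16 left it, 13 of them with total counts, by a shift common to all genes. The carriers past 1.5 downward fell from 1 (Slc25a34) to 0 with at least 100 reads, with a prior count of 5, at a coefficient of variation of 0.4 and at a threshold of 2. At a threshold of 1, chosen after the data were seen as a result of its own, 1 carrier was higher and 3 were lower, and 1 partner gene was higher and 3 were lower. The carrier higher at 1 was lost with total counts (0) and at a coefficient of 0.4 (0), and the 3 lower ones at 0.4 (0). Pairs whose interval left out 0 numbered 7, then 3 at 0.1 and 0 at 0.4. Without division by length the 4 carriers with the highest mean RPKM held 57.0% of control and 62.4% of senescent family reads. The median of the carriers lay between -0.25 and -0.14 over the other scalings, read limits and prior counts. With 1 library per condition the counting error, with a median half-width of 0.14 on the log2 scale, is the only error that could be measured. No paired analysis was possible because the labels give 1 library per condition and no replicate numbers.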
